A study of Mus musculus with 12 samples.

Results

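Glucocorticoid-responsive genes were followed in mouse hypothalamus after deletion of Stat3 from cells that express the leptin receptor. The set held 10 genes of the 52638 entries in the count table: Sgk1, Fkbp5, Cdkn1a, Plin4, Tsc22d3, Zbtb16, Nr3c1, Mt1, Mt2 and Per1. They were matched by symbol, and all 10 had reads in every library. They were selected on earlier results of these same 12 libraries, with no cut-off recorded, so their differences between the genotypes are described here and are not independent evidence of a direction.

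Stat3KO mice were homozygous for the floxed Stat3 allele (Stat3-flox/flox), and Ctrl mice did not carry it. Both genotypes were homozygous for LepRb-Cre, which places Cre in cells that express the long leptin receptor, and for R26-GFP:L10a, a GFP-tagged ribosomal protein switched on by that Cre. The mice were adult. Their exact age and sex were not stated in the labels. Hypothalami of 5 to 8 mice were pooled for each replicate in the middle of the light cycle. Each pool gave bead-bound RNA, which was pulled down with the tagged ribosomes, and supernatant RNA, which was left after the pull-down. There were 3 pools per genotype and so 12 libraries in 4 groups of 3: Stat3KO bead-bound, Ctrl bead-bound, Stat3KO supernatant and Ctrl supernatant.

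Glucocorticoids (corticosterone in mice) cross the cell membrane and bind the glucocorticoid receptor, encoded by Nr3c1, which is held in the cytoplasm by Hsp90 and its co-chaperones until hormone arrives. The receptor then enters the nucleus and binds DNA as a dimer at palindromic response elements near genes such as Fkbp5, Sgk1, Tsc22d3, Zbtb16 and Per1. In the hypothalamus it takes part in the negative feedback on the stress axis, and corticosterone in blood follows a daily rhythm with its low point in the light phase of nocturnal animals. Several of these genes also answer to other inputs: Cdkn1a to p53, Mt1 and Mt2 to zinc and copper, and Per1 to light, cAMP and the circadian clock.

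Promoter sequence is shown for 4 windows: the Sgk1 and Mt1 windows with a glucocorticoid response element, the Mt2 window beside Mt1 for its metal cores, and a Per1 window with an E-box. RefSeq windows of 250 bases upstream of a transcription start (GRCm38.p6) were matched for 8 of the 10 genes (all but Zbtb16 and Nr3c1), 17 windows in all. The full palindrome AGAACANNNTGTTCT, searched on both strands, was found in 3 of 32851 mouse windows (0.00913%), and 1 of those 3 was the 5th of the 6 Sgk1 windows. A relaxed form of it, GNACANNNTGTNC, was found in 127 windows (0.387%), among them the same Sgk1 window and the Mt1 window; each full match also contains a relaxed match, and the Sgk1 element overlaps matches of the half-site AGAACA (16.1% of all windows). Metal response cores, TGCACNC (10.4% of all windows) or TGCGCNC (12.5%), were found in the Mt1 and Mt2 windows and in the 2nd Per1 window. The E-box CACGTG (6.02%), a palindrome that clock proteins bind, was found in the 1st Per1 window, the Fkbp5 window and the same Sgk1 window as the response element. Capitals mark the response element in Sgk1, the relaxed element and then the metal core in Mt1, the 3 metal cores in Mt2 (the last on the opposite strand) and the E-box in Per1, while the E-box in Sgk1 is left in lower case; all 4 windows are on the plus strand.
Sgk1 chr10:21993640-21993889: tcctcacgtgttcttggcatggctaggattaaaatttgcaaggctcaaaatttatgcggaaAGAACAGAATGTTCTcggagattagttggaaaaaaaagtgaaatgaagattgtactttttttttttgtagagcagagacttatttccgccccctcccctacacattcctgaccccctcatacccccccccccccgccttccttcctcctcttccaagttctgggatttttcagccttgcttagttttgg
Mt1 chr8:94178839-94179088: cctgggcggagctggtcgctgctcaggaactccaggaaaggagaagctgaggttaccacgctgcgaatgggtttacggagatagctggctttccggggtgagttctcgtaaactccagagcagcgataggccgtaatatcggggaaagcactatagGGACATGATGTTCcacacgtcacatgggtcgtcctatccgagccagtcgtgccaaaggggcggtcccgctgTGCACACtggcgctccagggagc
Mt2 chr8:94172368-94172617: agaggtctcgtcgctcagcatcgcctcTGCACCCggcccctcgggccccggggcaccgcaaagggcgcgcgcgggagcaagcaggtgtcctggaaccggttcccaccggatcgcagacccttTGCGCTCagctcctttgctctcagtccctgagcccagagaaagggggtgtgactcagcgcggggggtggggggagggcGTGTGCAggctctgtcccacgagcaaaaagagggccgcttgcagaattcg
Per1 chr11:69098699-69098948: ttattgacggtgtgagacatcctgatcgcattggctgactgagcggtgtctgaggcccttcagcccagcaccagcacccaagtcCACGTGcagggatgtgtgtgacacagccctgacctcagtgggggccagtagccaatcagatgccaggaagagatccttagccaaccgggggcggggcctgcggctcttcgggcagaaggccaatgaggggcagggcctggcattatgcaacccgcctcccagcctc
The Sgk1 element began at position -189 from that start and the Mt1 element at -94. The windows of Fkbp5, Cdkn1a, Plin4, Tsc22d3, Mt2 and Per1 and the other Sgk1 windows held neither the full nor the relaxed element, which says only that these letters are not in the windows searched. The 2nd Tsc22d3 window and the 1st and 4th Sgk1 windows each held a half-site. The STAT letters TTCNNNGAA (7.02% of all windows) were found in the 1st Sgk1 window, the 2nd Per1 window and the 3rd Tsc22d3 window.

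Library totals ran between 20743217 and 41829907 counts. Stat3 itself had 114, 149 and 160 CPM (reads of a gene relative to its library's total, adjusted by edgeR's TMM factors) on Stat3KO beads, against 144, 175 and 179 CPM on Ctrl beads, with overlap. Counts are per gene, so reads from the floxed exons cannot be separated and this value does not check the deletion. The leptin receptor gene Lepr was 2.30 ± 0.19 log2 units higher in bead-bound than in supernatant RNA of Stat3KO (edgeR log2 fold change ± SE, adjusted p = 8.71e-05) and 2.37 ± 0.30 higher in Ctrl (adjusted p = 8.54e-04). Replicate 1 stood apart in every group. The mean chi-square per gene between replicate 1 and the other two ran from 25.1 to 75.5, against 5.91 to 16.0 between replicates 2 and 3. Results for the 10 genes are therefore also given for replicates 2 and 3 alone.

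Between genotypes, transcripts of Sgk1, Cdkn1a, Plin4, Fkbp5 and Per1 stood higher in Stat3KO than in Ctrl in both fractions, by 1.43-fold to 2.56-fold on fitted values. None of the 10 genes passed an adjusted p of 0.05 in edgeR's quasi-likelihood test in either fraction. Nr3c1, the receptor, had fitted log2 fold changes near 0, and Tsc22d3, Zbtb16, Mt1 and Mt2 lay between, with overlapping groups. All of these are levels in pooled tissue, in which fewer cells of a type and less RNA per cell cannot be told apart.

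Nr3c1 (ENSMUSG00000024431, chr18:39410545-39519421, minus strand, GRCm38) encodes the glucocorticoid receptor. It had 114, 144 and 171 CPM in Stat3KO bead-bound RNA, against 111, 137 and 160 CPM in Ctrl bead-bound RNA. In the supernatant it had 121, 151 and 152 CPM in Stat3KO, against 129, 166 and 167 CPM in Ctrl. Replicate 1 was the lowest library of its group all 4 times, and the genotypes overlapped in both fractions. The log2 fold change was 0.069 ± 0.18 in bead-bound RNA and -0.13 ± 0.13 in the supernatant (edgeR, ± SE, adjusted p = 0.999 and 0.909). Of 18 measured genes for the related receptor Nr3c2 and for chaperones, co-chaperones and coregulators, 0 passed in either fraction by edgeR or by DESeq2 and 0 had an unadjusted p under 0.05, and their median log2 fold change was 0.021 in bead-bound RNA and 0.048 in the supernatant. The mineralocorticoid receptor gene Nr3c2, whose product binds the same hormone with higher affinity, averaged 29.7 ± 2.41 CPM on Stat3KO beads and 28.4 ± 1.72 CPM on Ctrl beads (SD, n = 3 each). Fkbp4, the co-chaperone that replaces FKBP51 when hormone binds, averaged 316 ± 38.0 CPM on Stat3KO beads and 325 ± 40.7 CPM on Ctrl beads, and Hsp90aa1, an Hsp90 chaperone, averaged 268 ± 48.2 CPM on Stat3KO beads and 282 ± 82.9 CPM on Ctrl beads.

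Fkbp5 (ENSMUSG00000024222, chr17:28399094-28517527, minus strand) encodes FKBP51, a co-chaperone that lowers the receptor's affinity for hormone and is induced by the receptor itself. In bead-bound RNA it had 95.3, 108 and 106 CPM in Stat3KO, against 72.4, 76.7 and 66.5 CPM in Ctrl. In the supernatant it had 67.2, 79.4 and 66.2 CPM in Stat3KO, against 43.8, 44.9 and 46.6 CPM in Ctrl. Every Stat3KO library lay above every Ctrl library of its fraction, and the 3 Ctrl supernatant libraries were within 3 CPM of each other. The log2 fold change was 0.52 ± 0.13 in bead-bound RNA (edgeR adjusted p = 0.392, DESeq2 adjusted p = 0.156) and 0.65 ± 0.11 in the supernatant (edgeR adjusted p = 0.105, DESeq2 adjusted p = 2.10e-04).

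Sgk1 (ENSMUSG00000019970, chr10:21882184-21999903, plus strand) encodes a kinase that controls sodium channels and other transporters, and its 5th promoter window above carries the full response element. In bead-bound RNA it had 97.9, 93.2 and 66.1 CPM in Stat3KO, against 67.9, 43.9 and 37.7 CPM in Ctrl. In the supernatant it had 182, 213 and 146 CPM in Stat3KO, against 98.5, 90.5 and 70.4 CPM in Ctrl. The genotypes did not overlap in the supernatant, where the lowest Stat3KO library was well above the highest Ctrl library, and they touched in bead-bound RNA, where replicate 3 of Stat3KO fell just under replicate 1 of Ctrl. Sgk1 had a log2 fold change of 1.06 ± 0.16 in the supernatant, a 2.08-fold difference (edgeR adjusted p = 0.0895, DESeq2 adjusted p = 1.84e-07), and 0.78 ± 0.24 in bead-bound RNA (edgeR adjusted p = 0.695, DESeq2 adjusted p = 0.109). In the supernatant Sgk1 stood 4th of 18547 genes by unadjusted p, and in bead-bound RNA 186th of 17354. Sgk1 was chosen with these results known, so nothing is read from its ranks.

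Cdkn1a (ENSMUSG00000023067, chr17:29090976-29100727, plus strand) encodes p21, an inhibitor of cyclin-dependent kinases. In bead-bound RNA it had 50.5, 28.4 and 28.0 CPM in Stat3KO, against 19.3, 12.3 and 14.6 CPM in Ctrl. In the supernatant it had 40.6, 23.3 and 23.1 CPM in Stat3KO, against 16.2, 11.4 and 11.6 CPM in Ctrl. Replicate 1 was the highest library of each group, and no Stat3KO library overlapped a Ctrl library of its fraction. Cdkn1a had a log2 fold change of 1.21 ± 0.26 in bead-bound RNA, a 2.32-fold difference (edgeR adjusted p = 0.138, DESeq2 adjusted p = 3.81e-04), and 1.16 ± 0.22 in the supernatant (edgeR adjusted p = 0.197, DESeq2 adjusted p = 1.64e-04). Of its exon bases, 273 also lie in AC167363.2, which was not analysed here.

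Plin4 (ENSMUSG00000002831, chr17:56100591-56109803, minus strand) encodes a protein of the lipid droplet surface, and it was the lowest of the 10 genes. In bead-bound RNA it had 2.26, 7.51 and 3.72 CPM in Stat3KO, against 2.54, 1.89 and 1.02 CPM in Ctrl. In the supernatant it had 8.81, 18.3 and 10.95 CPM in Stat3KO, against 5.45, 5.89 and 3.51 CPM in Ctrl. The genotypes overlapped in bead-bound RNA through replicate 1 and did not overlap in the supernatant. Plin4 had a log2 fold change of 1.33 ± 0.46 in bead-bound RNA (edgeR adjusted p = 0.94, DESeq2 adjusted p = 0.25). That value was 0.72 without Stat3KO replicate 2 and 1.65 without Stat3KO replicate 1. In the supernatant the log2 fold change was 1.36 ± 0.27, a 2.56-fold difference (edgeR adjusted p = 0.211, DESeq2 adjusted p = 2.80e-04).

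Per1 (ENSMUSG00000020893, chr11:69095217-69109960, plus strand) encodes a repressor in the core loop of the circadian clock. In bead-bound RNA it had 103, 82.6 and 70.2 CPM in Stat3KO, against 68.0, 55.3 and 53.2 CPM in Ctrl. In the supernatant it had 98.2, 71.3 and 78.4 CPM in Stat3KO, against 58.6, 57.3 and 48.5 CPM in Ctrl. The genotypes did not overlap in either fraction, although in bead-bound RNA the lowest Stat3KO library was only just above the highest Ctrl library. Per1 had a log2 fold change of 0.53 ± 0.18 in bead-bound RNA (edgeR adjusted p = 0.859, DESeq2 adjusted p = 0.491) and 0.59 ± 0.14 in the supernatant (edgeR adjusted p = 0.443, DESeq2 adjusted p = 0.0269).

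Tsc22d3 (ENSMUSG00000031431, chrX:140539528-140600659, minus strand) encodes GILZ, a leucine zipper protein that carries part of the anti-inflammatory action of glucocorticoids. It had 161, 126 and 122 CPM in Stat3KO bead-bound RNA, against 140, 103 and 103 CPM in Ctrl, and 157, 178 and 159 CPM in Stat3KO supernatant, against 176, 145 and 142 CPM in Ctrl. The genotypes overlapped in both fractions, in each case through Ctrl replicate 1, the highest of its group. Zbtb16 (ENSMUSG00000066687, chr9:48654297-48836222, minus strand) encodes the transcription repressor PLZF. It had 11.5, 21.3 and 17.6 CPM in Stat3KO bead-bound RNA, against 13.8, 10.5 and 13.5 CPM in Ctrl, and 17.2, 25.6 and 21.9 CPM in Stat3KO supernatant, against 18.6, 15.3 and 19.5 CPM in Ctrl. Its Stat3KO replicate 1 was the lowest Stat3KO library in both fractions, and the genotypes overlapped. The log2 fold changes in bead-bound RNA and supernatant were 0.24 ± 0.17 and 0.088 ± 0.11 for Tsc22d3 and 0.41 ± 0.23 and 0.27 ± 0.15 for Zbtb16, with edgeR adjusted p between 0.85 and 0.999.

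Mt1 (ENSMUSG00000031765, chr8:94179082-94180327, plus strand) and Mt2 (ENSMUSG00000031762, chr8:94172664-94173568, plus strand) are neighbouring genes for metallothioneins, small proteins that bind zinc and copper. Mt1 had 223, 105 and 97.3 CPM in Stat3KO bead-bound RNA, against 148, 86.5 and 81.5 CPM in Ctrl, and 256, 180 and 170 CPM in Stat3KO supernatant, against 205, 143 and 140 CPM in Ctrl. Mt2 had 20.7, 7.59 and 6.75 CPM in Stat3KO bead-bound RNA, against 12.8, 5.93 and 7.75 CPM in Ctrl, and 27.6, 15.7 and 14.4 CPM in Stat3KO supernatant, against 19.7, 14 and 15.4 CPM in Ctrl. For both genes replicate 1 was the highest library of every group, by more than the difference between the genotypes, and the genotypes overlapped. The log2 fold change of Mt1 was 0.43 ± 0.33 in bead-bound RNA and -0.049 without Stat3KO bead-bound replicate 1, and that of Mt2 was 0.40 ± 0.42 and -0.29 without that library (edgeR adjusted p with all libraries = 0.999 for both). In the supernatant the log2 fold changes were 0.31 ± 0.18 for Mt1 and 0.24 ± 0.23 for Mt2 (edgeR adjusted p = 0.855 and 0.90), and that of Mt2 was -0.12 without Stat3KO supernatant replicate 1. The 2 genes are close copies, and 432 of the 588 exon bases of Mt2 also lie in the antisense gene Gm45774, which had 15 to 49 reads per library, so their counts are uncertain where reads could be split. Mt3, the metallothionein of neurons and glia, averaged 330 ± 83.8 CPM on Stat3KO beads and 312 ± 69.3 CPM on Ctrl beads (SD, n = 3 each).

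**Figure D1:**
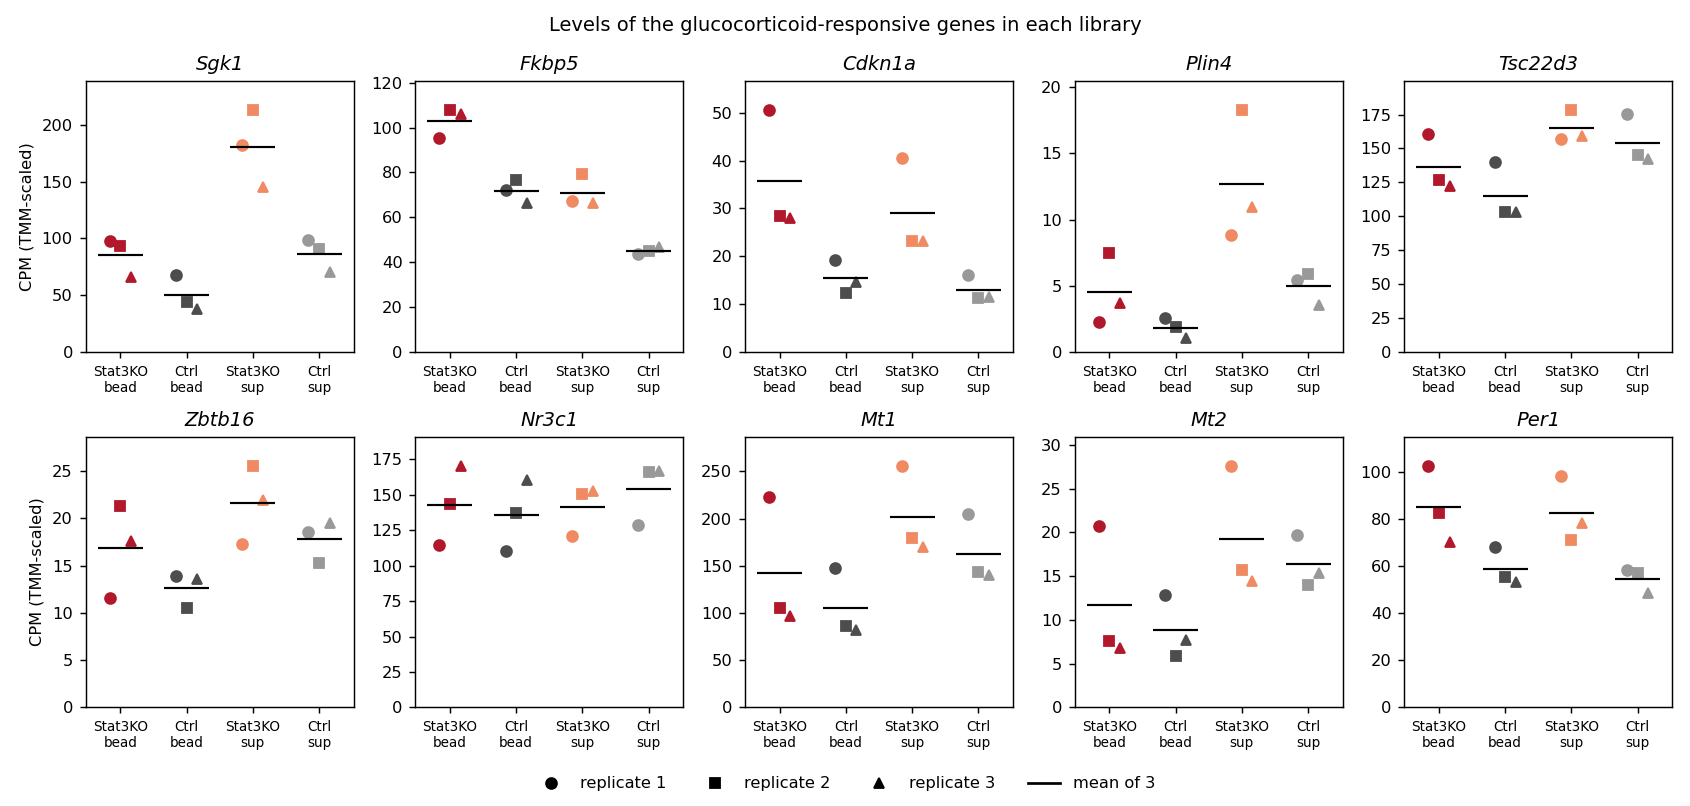
Level of each gene in each library, in TMM-scaled CPM, on axes that start at 0; point shapes are replicates 1 to 3 and the black line is the mean of 3. Fkbp5, Cdkn1a and Per1 show Stat3KO above Ctrl without overlap in both fractions, Sgk1 and Plin4 in the supernatant, and replicate 1 is the highest point of every Mt1 and Mt2 group.

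Of the 10 genes, 0 were called higher in Stat3KO bead-bound RNA by edgeR, where 0.421% of 17354 genes were called higher. At an unadjusted p under 0.05, 5 of the 10 were higher (Sgk1, Fkbp5, Cdkn1a, Plin4 and Per1), against 2.1% of all genes, and DESeq2 called 1, Cdkn1a, against 0.47%. In the supernatant edgeR called 0 of the 10 higher, where the share of all 18547 genes called higher was 0.0%. The same 5 genes had an unadjusted p under 0.05 there, against 2.09% of all genes, and DESeq2 called those 5 higher, against 0.0617%. The genotypes did not overlap, with Stat3KO higher, for 3 of the 10 in bead-bound RNA (5.1% of all genes) and for 5 in the supernatant (6.4% of all genes). The median log2 fold change of the 10 genes was 0.47 in bead-bound RNA and 0.45 in the supernatant, while the medians of all genes tested were -0.0085 and -0.0029. Since the genes were chosen with these results known, nothing is read from these shares.

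With replicates 2 and 3 alone, 2 libraries against 2, edgeR called 6 of the 10 genes higher in bead-bound RNA, where 1.56% of 17543 genes were. They were Sgk1 (log2 fold change 0.94 ± 0.13, adjusted p = 3.80e-05), Cdkn1a (1.04 ± 0.14, adjusted p = 2.57e-05), Plin4 (1.94 ± 0.34, adjusted p = 4.33e-04), Fkbp5, Per1 and Zbtb16. In the supernatant 6 were also called, where 1.07% of 18678 genes were higher: Cdkn1a (1.00 ± 0.098, adjusted p = 7.66e-04), Sgk1 (1.15 ± 0.15, adjusted p = 0.00243), Fkbp5 (0.66 ± 0.091, adjusted p = 0.00287), Plin4, Per1 and Mt1. Leaving out only Stat3KO supernatant replicate 1 gave 3 calls there (Sgk1, Fkbp5 and Plin4, where 0.0316% of all genes were higher), and leaving out only Stat3KO supernatant replicate 3 gave 1 (Sgk1, where 0.0157% were). On replicates 2 and 3 alone Mt2 had a log2 fold change of 0.042 in bead-bound RNA and 0.022 in the supernatant. Over all genes that setting gave 273 higher and 894 lower calls in bead-bound RNA, against 73 and 5 with all libraries. In the supernatant it gave 200 higher and 788 lower calls, against 0 and 2. Replicate 1 was left out because it differed most within each group, which by itself leaves a smaller spread and smaller p. The genes were also chosen with these libraries known, so nothing is read from these calls either.

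**Figure D2:**
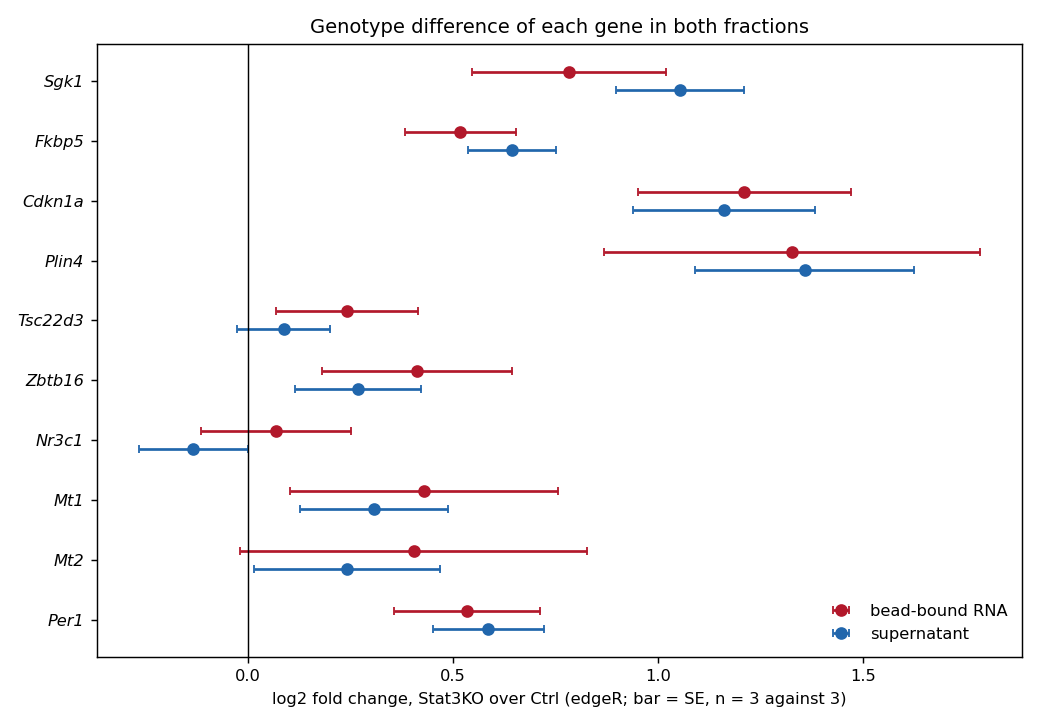
Fitted log2 fold change of each gene, Stat3KO over Ctrl, in bead-bound RNA and in the supernatant; bars are the standard error from edgeR, n = 3 against 3. Plin4, Cdkn1a and Sgk1 lie farthest to the right in both fractions, and Nr3c1 lies near 0.

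Of 28 other genes that glucocorticoids induce, 26 were tested in each fraction, and their median log2 fold change was 0.22 in bead-bound RNA and 0.20 in the supernatant. By edgeR and by DESeq2 0 passed in either fraction. At an unadjusted p under 0.05, 4 were higher in bead-bound RNA (2.1% of all genes) and 9 in the supernatant (2.09% of all genes), and none was lower. This list and the other related lists were also chosen with earlier results of these data known, so nothing is read from their shares. Hif3a, a hypoxia-inducible factor subunit, averaged 12.0 ± 3.42 CPM in Stat3KO and 7.22 ± 0.48 CPM in Ctrl supernatant (SD, n = 3 each), without overlap (edgeR adjusted p = 0.483). Sult1a1, a sulfotransferase, averaged 8.89 ± 2.47 CPM in Stat3KO and 5.23 ± 1.46 CPM in Ctrl supernatant, again without overlap (edgeR adjusted p = 0.57). Klf9, a zinc finger factor, averaged 114 ± 14.3 CPM on Stat3KO beads and 89.0 ± 3.12 CPM on Ctrl beads, and 146 ± 9.70 CPM in Stat3KO and 129 ± 12.8 CPM in Ctrl supernatant, without overlap in either. By contrast Rhob, a small GTPase, averaged 447 ± 77.1 CPM on Stat3KO beads and 447 ± 77.6 CPM on Ctrl beads.

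Among 20 other clock genes 0 passed in edgeR, and their median log2 fold change was 0.10 in bead-bound RNA and 0.12 in the supernatant. At an unadjusted p under 0.05, 2 were higher in bead-bound RNA (2.1% of all genes) and 4 in the supernatant (2.09% of all genes), and none was lower. The log2 fold change was positive for 15 of the 20 in bead-bound RNA and 17 in the supernatant. Without overlap, Stat3KO was higher for 4 in bead-bound RNA (5.1% of all genes) and 6 in the supernatant (6.4% of all genes). DESeq2 called 0 in bead-bound RNA and 1 in the supernatant, the repressor gene Cry1. Cry1 averaged 57.2 ± 1.64 CPM on Stat3KO beads and 38.6 ± 4.20 CPM on Ctrl beads (SD, n = 3 each), and 41.7 ± 1.79 CPM in Stat3KO and 27.5 ± 3.21 CPM in Ctrl supernatant, where the edgeR adjusted p was 0.212 and the DESeq2 adjusted p 0.00715. Per2, the closest relative of Per1 in the clock, averaged 28.7 ± 7.69 CPM on Stat3KO beads and 20.99 ± 1.76 CPM on Ctrl beads, with overlap, and 31.5 ± 4.55 CPM in Stat3KO and 25.2 ± 1.10 CPM in Ctrl supernatant, without overlap. Arntl, the activator that drives Per1 and Per2, averaged 30.8 CPM in both genotypes in bead-bound RNA.

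Genes that share the other inputs of single members, metals for Mt1 and Mt2 and p53 for Cdkn1a, had no calls. Neither had the other genes induced by glucocorticoids, and the part of any of these inputs was not tested. Of 14 tested genes of metal handling other than Mt1 and Mt2, 0 passed and 0 had an unadjusted p under 0.05 in either fraction, and their medians were -0.10 in bead-bound RNA and -0.066 in the supernatant. Among p53 targets and cell-cycle inhibitors other than Cdkn1a, 0 of 13 passed in bead-bound RNA (2 at an unadjusted p under 0.05, Pmaip1 higher and Bbc3 lower) and 0 of 14 in the supernatant (0 at an unadjusted p under 0.05), with medians of 0.033 and 0.052. Of all genes, 2.1% were higher in bead-bound RNA at that p, and the share lower is not given here. Log2 fold changes were positive for 8 of 13 genes of the p53 list in bead-bound RNA and 12 of 14 in the supernatant. For metal handling they were positive for 5 of 14 and 6 of 14. DESeq2 called 0 genes in both lists. Mdm2, a p53 target that limits p53, averaged 57.7 ± 0.88 CPM on Stat3KO beads and 51.4 ± 2.74 CPM on Ctrl beads. The 6 tested enzymes and pumps that set corticosteroid level in a cell had 0 calls by either tool and 0 unadjusted p under 0.05, with medians of 0.0035 and -0.15, and Hsd11b1, which regenerates active hormone, averaged 2.22 ± 0.29 CPM on Stat3KO beads and 2.23 ± 0.13 CPM on Ctrl beads. Close relatives of the 10 genes, 18 tested, had 0 calls by either tool and medians of 0.020 and 0.042, with 0 and 2 at an unadjusted p under 0.05. Those 2 were higher in Stat3KO supernatant, where 2.09% of all genes were.

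The peptides and receptors of the hypothalamic stress axis, 10 tested, had medians of -0.073 in bead-bound RNA and -0.070 in the supernatant and 0 edgeR calls. At an unadjusted p under 0.05, 2 were lower in bead-bound RNA and 1, Avp, was higher in the supernatant (2.09% of all genes). The share of all genes lower in bead-bound RNA is not given here, so nothing is read from that count. The 2 were Crhr2, a receptor for the Crh family, at 3.72 ± 0.61 CPM on Stat3KO beads and 6.65 ± 0.97 CPM on Ctrl beads (SD, n = 3 each, edgeR adjusted p = 0.457), and Ucn, urocortin, at 2.10 ± 0.66 CPM on Stat3KO beads and 8.32 ± 6.37 CPM on Ctrl beads, with overlap (edgeR adjusted p = 0.471). Crh, the releasing hormone that starts the axis, averaged 18.5 ± 8.03 CPM on Stat3KO beads and 14.7 ± 1.49 CPM on Ctrl beads, and 4.40 ± 1.03 CPM in Stat3KO and 4.91 ± 0.58 CPM in Ctrl supernatant. Avp, vasopressin, averaged 153 ± 34.5 CPM in Stat3KO and 81.3 ± 12.8 CPM in Ctrl supernatant and did not overlap there (edgeR adjusted p = 0.176, DESeq2 adjusted p = 1.64e-04). It was the 1 gene of the list that DESeq2 called, where 0.0617% of all genes were called higher in the supernatant.

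**Figure D3:**
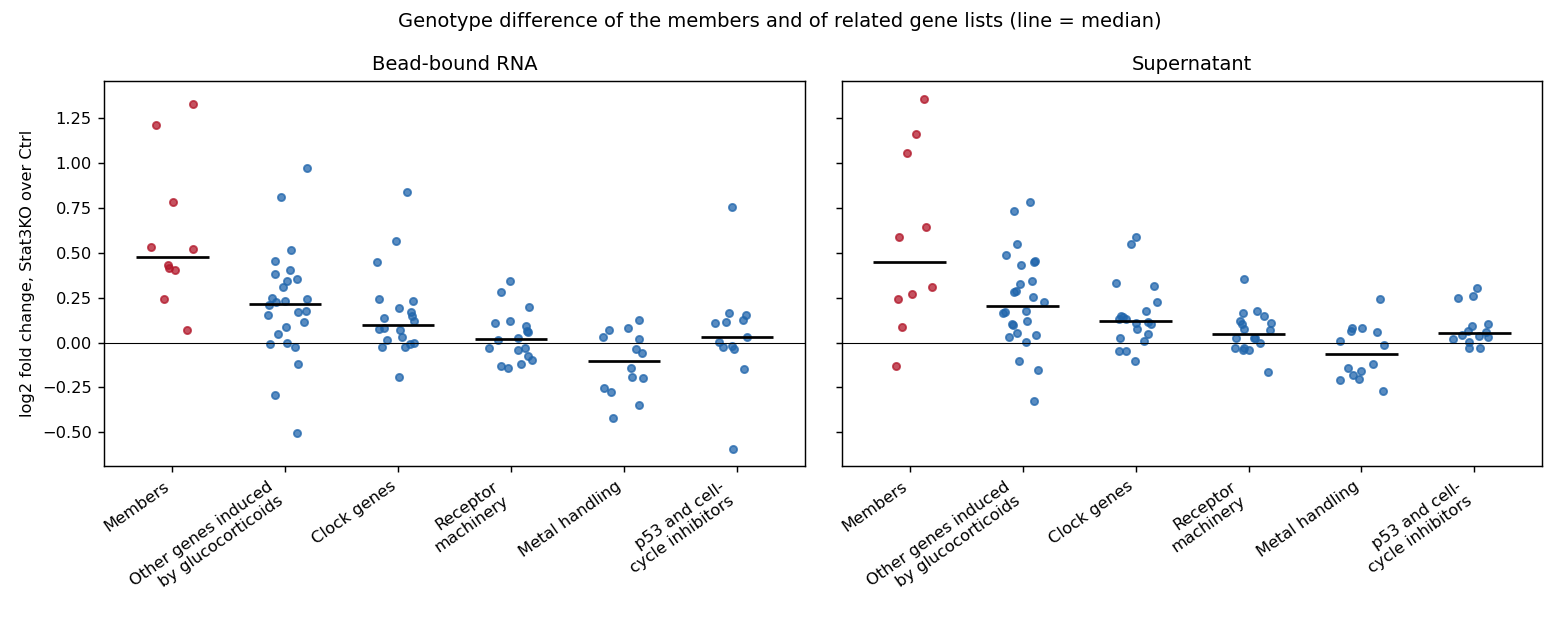
Fitted log2 fold change, Stat3KO over Ctrl, of each of the 10 genes (red, left) and of each tested gene in 5 related lists (blue), in bead-bound RNA and in the supernatant; the line is the list's median. The 10 genes have medians of 0.47 and 0.45, the other genes induced by glucocorticoids 0.22 and 0.20, and the remaining lists between -0.10 and 0.12. The 10 genes and the lists were chosen with earlier results of these data known.

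Summed levels of oligodendrocyte, oligodendrocyte precursor and microglial markers lay lower in Stat3KO than in Ctrl supernatant without overlap, and those of astrocyte markers overlapped. All 14 oligodendrocyte markers had a negative log2 fold change there, with a median of -0.42, and their summed level was 5180 to 5889 CPM in Stat3KO, against 6238 to 7967 CPM in Ctrl. Microglial markers, 12 of 12 negative, summed to 79.5 to 118 CPM in Stat3KO, against 121 to 130 CPM in Ctrl, and the 9 markers of oligodendrocyte precursors, all negative, to 431 to 473 CPM in Stat3KO, against 514 to 541 CPM in Ctrl. The 13 astrocyte markers, 11 negative, summed to 1723 to 2011 CPM in Stat3KO, against 1950 to 2011 CPM in Ctrl. By edgeR 0 markers of these lists passed in either fraction. At an unadjusted p under 0.05 there were 7 oligodendrocyte, 4 microglial, 3 precursor and 5 astrocyte markers in the supernatant, all lower in Stat3KO, where 4.1% of all genes were lower, and DESeq2 called 1, 0, 1 and 1 lower, where 0.128% of all genes were. Endothelial markers, 15 in all, summed to 60.1, 285 and 193 CPM in Stat3KO bead-bound RNA, against 132, 146 and 256 CPM in Ctrl, and replicate 1 was thus the lowest endothelial library of each genotype. Fkbp5, Plin4, Zbtb16 and Nr3c1 were lowest in replicate 1 on Stat3KO beads, whereas on Ctrl beads Nr3c1 was the 1 gene lowest in replicate 1, and Plin4 and Zbtb16 were highest there. In lists for neurons, mural cells, ependyma with tanycytes, fibroblasts and blood, 0 markers passed by either tool, at most 1 per list and fraction had an unadjusted p under 0.05, and the medians ran from -0.24 (fibroblasts, supernatant) to 0.23 (blood, supernatant). No marker was at 0 across a group, and the part of any of them in the levels of the 10 genes was not tested.

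Across fractions the 10 genes went in different directions. Fkbp5 was higher in bead-bound than in supernatant RNA in both genotypes, Sgk1 and Plin4 were lower in both, and Zbtb16 and Mt2 were lower in Ctrl. By edgeR 1 of the 10 was higher and 2 lower in Stat3KO, where 14.7% of 18107 genes were higher and 17.3% lower, and 1 was higher and 4 lower in Ctrl, where 20.7% of 18036 genes were higher and 21.2% lower. Both fractions of a replicate came from the same pool of mice, and with the pool as a block 2 were higher and 6 lower in Stat3KO (23.7% and 26.0% of all genes), and 1 was higher and 7 lower in Ctrl (29.4% and 29.0% of all genes). The fractions differ in cell makeup: in bead-bound RNA all 14 oligodendrocyte markers were lower in both genotypes (medians -1.37 in Stat3KO and -1.55 in Ctrl), while 8 of 15 endothelial markers in Stat3KO and 12 of 15 in Ctrl were higher.

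Fkbp5 had log2 ratios of bead-bound to supernatant CPM of 0.50, 0.44 and 0.68 in the 3 Stat3KO pools, against 0.72, 0.77 and 0.51 in the 3 Ctrl pools. All 6 pools were above 0. The fitted log2 fold change was 0.53 ± 0.12 in Stat3KO (edgeR adjusted p = 0.0118, with the pool as a block 2.76e-04) and 0.68 ± 0.10 in Ctrl (adjusted p = 0.00157, with the block 6.77e-05). Fkbp4, its counterpart among the co-chaperones, was likewise higher on the beads, by 0.58 ± 0.14 in Stat3KO (adjusted p = 0.0125) and 0.82 ± 0.12 in Ctrl (adjusted p = 0.00145). Without Stat3KO supernatant replicate 3 Fkbp5 was no longer called in Stat3KO.

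Sgk1 had log2 ratios of -0.90, -1.19 and -1.14 in the Stat3KO pools, against -0.54, -1.04 and -0.90 in the Ctrl pools, all below 0. The fitted log2 fold change was -1.09 ± 0.19 in Stat3KO (edgeR adjusted p = 0.00317, with the pool as a block 4.65e-07) and -0.79 ± 0.23 in Ctrl (adjusted p = 0.0245, with the block 8.43e-05). Its relatives Sgk3 and Sgk2 were lower on the beads as well, Sgk3 by -1.41 ± 0.16 in Stat3KO and -1.38 ± 0.18 in Ctrl (adjusted p = 4.92e-04 and 8.84e-04). Plin4 had ratios of -1.96, -1.28 and -1.56 in the Stat3KO pools, against -1.10, -1.64 and -1.78 in the Ctrl pools, all below 0 and fitted at -1.50 ± 0.41 in Stat3KO (adjusted p = 0.0216, with the block 2.03e-06) and -1.45 ± 0.35 in Ctrl (adjusted p = 0.0114, with the block 2.06e-04). Plin4 was not called in Stat3KO without supernatant replicate 2, bead-bound replicate 3 or supernatant replicate 3. Sgk1 was not called in Ctrl without supernatant replicate 1 or 2 or bead-bound replicate 2 or 3.

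Zbtb16 and Mt2 were lower on the beads in Ctrl, by -0.49 ± 0.16 (edgeR adjusted p = 0.0353, with the pool as a block 0.00211) and -0.88 ± 0.28 (adjusted p = 0.0333, with the block 2.85e-04). In Stat3KO the same genes were at -0.37 ± 0.23 (adjusted p = 0.242, with the block 0.0101) and -0.74 ± 0.41 (adjusted p = 0.198, with the block 2.09e-04). Zbtb16 and Mt2 were not called in Ctrl without supernatant replicate 1 or 3 or bead-bound replicate 2 or 3, nor when all 12 libraries were fitted together (adjusted p = 0.0768 and 0.0861). Tsc22d3 and Mt1 did not pass without the block and passed with it. In Stat3KO Tsc22d3 was at -0.28 ± 0.14 (adjusted p = 0.141, with the block 0.0331) and Mt1 at -0.52 ± 0.30 (adjusted p = 0.21, with the block 5.33e-04). In Ctrl Tsc22d3 was at -0.41 ± 0.16 (adjusted p = 0.0618, with the block 3.98e-04) and Mt1 at -0.62 ± 0.25 (adjusted p = 0.0798, with the block 7.62e-05). Mt3, the metallothionein of neurons and glia, had no call, at 0.25 ± 0.18 in Stat3KO and 0.27 ± 0.20 in Ctrl (adjusted p = 0.311 and 0.313).

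Cdkn1a, Nr3c1 and Per1 were not called between fractions without the block. Cdkn1a was at 0.29 ± 0.28 in Stat3KO (edgeR adjusted p = 0.461, with the pool as a block 0.0253) and 0.25 ± 0.21 in Ctrl (adjusted p = 0.355, with the block 0.0709), and its 6 pool ratios ran from 0.12 to 0.34. Nr3c1 was at 0.0049 ± 0.16 in Stat3KO (adjusted p = 0.986) and -0.18 ± 0.15 in Ctrl (adjusted p = 0.376, with the block 0.034). Per1 was at 0.034 ± 0.17 in Stat3KO and 0.11 ± 0.14 in Ctrl (adjusted p = 0.899 and 0.541). The other receptor for corticosterone, Nr3c2, was lower on the beads by -0.56 ± 0.13 in Stat3KO (adjusted p = 0.0101) and -0.63 ± 0.10 in Ctrl (adjusted p = 0.00247).

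**Figure D4:**
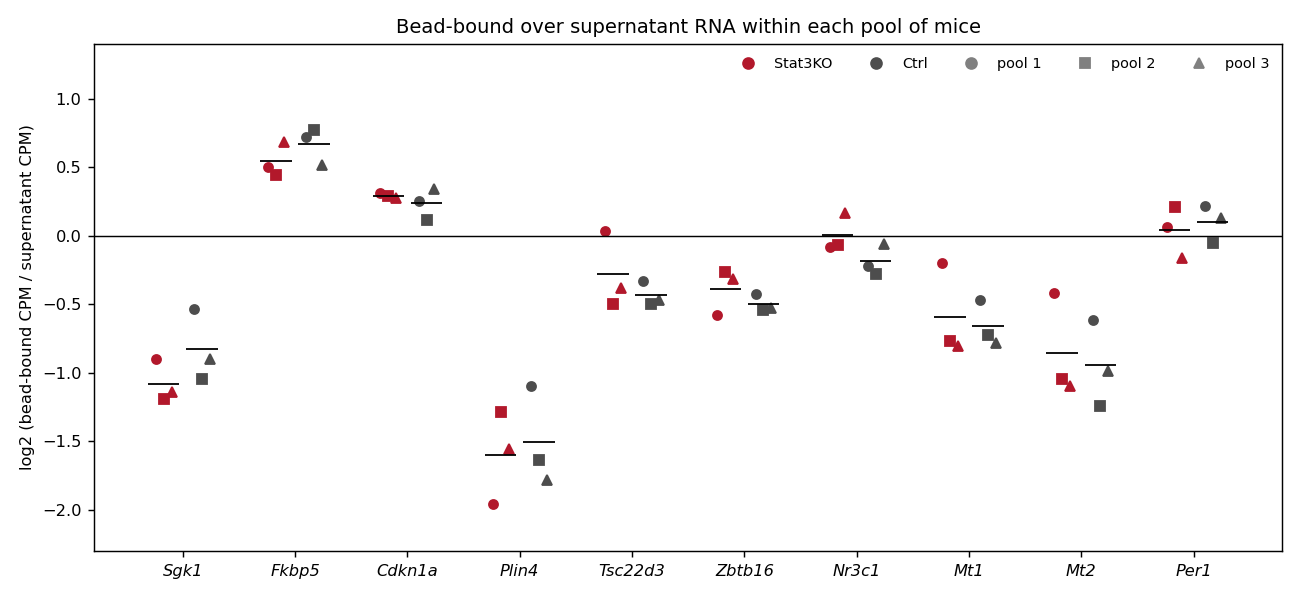
Log2 ratio of bead-bound to supernatant CPM for each gene in each pool of mice, Stat3KO left of Ctrl; shapes are pools 1 to 3 and the black line is the mean of 3. The Fkbp5 ratios are all above 0, and the Sgk1 and Plin4 ratios are all below 0.

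Of the 26 other tested genes induced by glucocorticoids, 3 were higher and 11 lower on the beads in Stat3KO, and 2 were higher and 9 lower in Ctrl, with medians of -0.30 and -0.24 (of all genes, 14.7% were higher and 17.3% lower in Stat3KO, and 20.7% higher and 21.2% lower in Ctrl). Hif3a was at -1.76 ± 0.37 in Stat3KO (edgeR adjusted p = 0.0073) and -1.99 ± 0.30 in Ctrl (adjusted p = 0.00157). Sult1a1 was at -1.12 ± 0.25 in Stat3KO (adjusted p = 0.00974) and -1.14 ± 0.32 in Ctrl (adjusted p = 0.0202), and Gpd1, a glycerol-3-phosphate dehydrogenase, at -1.29 ± 0.24 in Stat3KO (adjusted p = 0.00455). Rgs2, a regulator of G protein signalling, went the other way, at 1.17 ± 0.11 in Stat3KO (adjusted p = 1.88e-04) and 1.36 ± 0.091 in Ctrl (adjusted p = 7.52e-05). Of 18 genes of the receptor machinery 4 were higher and 6 lower in Stat3KO and 6 higher and 8 lower in Ctrl, and of 20 clock genes 2 were higher and 5 lower in Stat3KO and 3 higher and 6 lower in Ctrl, to be read against the same shares. Crh was higher on the beads by 2.06 ± 0.30 in Stat3KO (adjusted p = 0.0016) and 1.58 ± 0.15 in Ctrl (adjusted p = 2.97e-04).

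Whether the genotype difference itself changed between fractions was tested as an interaction over all 12 libraries. By edgeR 0 of the 10 genes passed (0.204% of 19122 genes did), 0 had an unadjusted p under 0.05 and DESeq2 called 0. The difference of the log2 bead to supernatant ratio, Stat3KO minus Ctrl, was -0.28 ± 0.31 for Sgk1, -0.13 ± 0.16 for Fkbp5, 0.050 ± 0.38 for Cdkn1a, -0.025 ± 0.62 for Plin4 and -0.058 ± 0.23 for Per1 (adjusted p = 1.0 for each). This fit had no term for the pool, so its SE takes bead-bound and supernatant libraries of a pool as independent. With the pool as a block the difference was -0.25 for Sgk1, -0.13 for Fkbp5, 0.056 for Cdkn1a, -0.076 for Plin4 and -0.056 for Per1. Again 0 of the 10 genes passed.

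On a per-length scale (CPM per kilobase of exon) Mt1 was the most abundant member in every group, at 114 ± 56.3 in Stat3KO bead-bound RNA and 162 ± 37.9 in Stat3KO supernatant (SD, n = 3 each). Plin4 was the least abundant, at 0.78 ± 0.47 in Stat3KO bead-bound RNA and 2.19 ± 0.86 in Stat3KO supernatant. In Stat3KO bead-bound RNA Tsc22d3 was second at 31.4 ± 4.89, and Mt2, Nr3c1, Sgk1 and Per1 followed between 15.1 and 19.9, less apart than the spread of Mt2 (SD 13.3). Fkbp5 at 10.9 ± 0.72 and Cdkn1a at 10.03 ± 3.63 did not differ beyond their spread. In Stat3KO supernatant Tsc22d3 at 38.0 ± 2.71, Sgk1 at 36.8 ± 6.89 and Mt2 at 32.7 ± 12.4 were within their spread, and Fkbp5 at 7.49 ± 0.78 and Cdkn1a at 8.16 ± 2.83 likewise.

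Genes with the most similar pattern over the 12 libraries were named by the root mean square difference of centred log2 CPM among 13950 genes, as a description over libraries that share pools and depth. Sgk1 was closest to Sult1a1 (0.20), Plin4 to Hif3a (0.37), and Fkbp5 to Cry1 (0.16). Cdkn1a was closest to Ciart (0.34), a circadian repressor, with Gm26902 and Per1 little farther (0.355 each), and Mt2 to Mt1 (0.20). Nr3c1 was closest to Rasa1 (0.062), Tsc22d3 to Mecr (0.094), Zbtb16 to Khdc4 (0.17), Mt1 to Tsc22d4 (0.17) and Per1 to Sytl4 (0.16). These distances also depend on how much a member itself varied. Its own root mean square was 0.72 for Sgk1, 1.0 for Plin4, 0.43 for Fkbp5, 0.66 for Cdkn1a and 0.65 for Mt2. It was 0.21 for Nr3c1, 0.26 for Tsc22d3, 0.36 for Zbtb16, 0.52 for Mt1 and 0.33 for Per1.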

How the data were processed

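Gene-level counts from 12 libraries (poly(A) RNA, single-end reads of 50 cycles) were used. The deposited counts are whole-number reads per gene as the authors gave them. Per the submitters' processing notes, STAR 2.5.3a and the mm10 build were used. The counting tool, with its annotation, strand setting and filters, is not given in the sources used here, and the library kit is not stated to mark strand. Of 52638 entries, 52489 were matched by ID to GENCODE M21 (GRCm38), and 18204 were at 0 in all libraries. No column was left unused (0 columns).

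Groups came from the sample titles. edgeR 4.0.16 (R 4.3.3, limma 3.58.1) was run with TMM scaling and quasi-likelihood tests on genes kept by filterByExpr (minimum count 10), 1 fit per comparison over its own 6 libraries and 1 over all 12 for the interaction. Adjusted p are Benjamini-Hochberg values over all genes tested, and a call is an adjusted p under 0.05. CPM are TMM-scaled. An offset of 0.5 was added before taking log2 for pattern likeness and for the correlations of library deviations, and pool ratios had no offset. Library totals limit precision at low counts, as for Plin4. DESeq2 1.42.0, library totals, no filter, a minimum count of 50, a replicate block, all 12 libraries, replicates 2 and 3 alone and leaving out each library were alternatives.

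The 10 genes, the related lists and the markers were chosen with earlier results of these data known. The text names all 10 genes, set genes such as Nr3c2, Fkbp4 and Crh, and genes with large differences from each list, while Rhob, Mdm2, Arntl, Cry1, Avp, Crhr2, Ucn, Pmaip1, Bbc3 and, between genotypes, Hif3a and Sult1a1 were named after their values were seen. Bead-bound and supernatant libraries of a number share a pool, per the labels, and deviated together (r between 0.30 and 0.54 over 19122 genes). Pools are separate mice, 3 per group. Promoter windows came from RefSeq (GRCm38.p6), searched in 250 bases upstream of each start.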

Additional observations from a re-analysis of the deposited data

How the results depend on the processing

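No count of called genes between the genotypes was the same under every alternative. In bead-bound RNA 0 of the 10 genes were called; DESeq2 gave 1, no filter on low counts 3 and replicates 2 and 3 alone 6, while leaving out 1 library gave 0 to 0. In the supernatant 0 were called. There DESeq2 gave 5, no filter 5, replicates 2 and 3 alone 6 and leaving out 1 library 0 to 3. With no filter, 133 of 30330 genes were called higher in bead-bound RNA and 46 of 32767 in the supernatant. Replicate numbers are not stated to pair the genotypes, and same-number r between genotypes ran from -0.081 to 0.25 over 19122 genes. For replicate 1 it was 0.217 in bead-bound RNA and 0.203 in the supernatant. Replicate 1 against replicates 2 and 3 of the other genotype ran from -0.335 to -0.00357. A factor shared by number was not tested. With a replicate block 1 was called in bead-bound RNA (Cdkn1a, where 70 of 17354 genes were higher). In the supernatant 2 were called (Sgk1 and Cdkn1a, where 2 of 18547 genes were higher). For bead-bound against supernatant RNA, Stat3KO had 3 calls, 5 with no filter, 8 with the replicate block, 6 on replicates 2 and 3 and 1 to 6 leaving out 1 library, and Ctrl had 5 calls, 8 with the replicate block, 4 with all 12 libraries in one fit, 7 with DESeq2, library totals, no filter or replicates 2 and 3, and 2 to 7 leaving out 1 library. Of all genes, replicates 2 and 3 gave 3813 higher and 4207 lower of 18290 in Stat3KO, and 4848 and 4774 of 18348 in Ctrl. With no filter, 3068 were higher and 3803 lower of 32207 in Stat3KO, and 4104 and 4128 of 31700 in Ctrl. In Ctrl, all 12 libraries in one fit gave 3700 higher and 3944 lower of 19122, and DESeq2 gave 3813 and 4034 of 22196. Without Stat3KO bead-bound replicate 1, 6 of the 10 were called, with 2921 genes higher and 3489 lower of 18730. Without Stat3KO supernatant replicate 3 it was 1, with 1425 and 2003 of 18567. Without Ctrl bead-bound replicate 1 it was 7, with 4234 and 4579 of 18790. It was 2 without Ctrl supernatant replicate 1 (3139 and 3228 of 18568). It was also 2 without Ctrl bead-bound replicate 2 (2715 and 2710 of 18787) or 3 (3643 and 3465 of 18312). The interaction had 0 calls under every alternative run.

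No gene called in a comparison reversed there under the alternatives run. For bead-bound over supernatant in Stat3KO, Nr3c1 was at -0.095 with library totals, -0.025 with a minimum count of 50 and -0.0067 with the replicate block, and Per1 at -0.075 with library totals (-0.044 in Ctrl). The interaction reversed for Plin4 with library totals (0.021) and replicates 2 and 3 (0.32) and for Mt1 with replicates 2 and 3 (-0.034). Leaving out 1 library gave, between genotypes in bead-bound RNA, -0.049 to 0.75 for Mt1, -0.29 to 0.77 for Mt2 and -0.068 to 0.21 for Nr3c1, and in the supernatant -0.12 to 0.41 for Mt2. It gave, between fractions in Stat3KO, -0.045 to 0.61 for Cdkn1a, -0.13 to 0.15 for Nr3c1 and -0.11 to 0.18 for Per1, and in Ctrl -0.018 to 0.19 for Per1. For the interaction the ranges were -0.45 to 0.0060 for Sgk1, -0.29 to 0.37 for Cdkn1a, -0.60 to 0.33 for Plin4, -0.052 to 0.34 for Zbtb16, -0.37 to 0.44 for Mt1, -0.54 to 0.52 for Mt2 and -0.22 to 0.084 for Per1. Scaling by library totals moved the median of all genes between fractions to -0.12 in Stat3KO and -0.16 in Ctrl, and the calls to 1842 higher and 3716 lower in Stat3KO, against 2669 and 3135. In Ctrl they were 2387 and 4906, against 3735 and 3829. The causes were not tested.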
